A study of Mus musculus with 18 samples.

Results

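Interleukins are secreted signalling proteins that immune cells, glia and neurons use to talk to each other, and each acts through a receptor built from a chain that recognises it and one that it often shares with its relatives. The IL-1 family is held in the cell or stored as a precursor and is released on injury, the common gamma-chain cytokines feed lymphocytes, the IL-12 family directs T cells, the IL-17 family acts on barrier and stromal cells, and IL-31 acts on itch-sensing neurons. In the dorsal horn of the cord (dorsal horn spinal cord, DHSC), where signals from the skin are relayed, microglia, astrocytes, oligodendrocytes and neurons carry several of these receptors, and interleukins have long been studied as modulators of pain relay.

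The genes described here are the table's entries whose symbol begins with Il and a digit, apart from Il6, Il6ra, Il6st, Il11 and Il34. They were 80 of the 55573 genes in the table, and 51 of them had at least 10 counts in 6 or more of the 18 samples and are reported. The samples were ipsilateral DHSC from C57BL/6J mice of 8 to 12 weeks, segments L3 to L5, collected 2 h after the left hind paw had been injected with 2% formalin (8 µl for each 20 g of mouse). They came from 6 males, 6 females in proestrus with a short interphase of the formalin response (F1/proestrus) and 6 females in metestrus with a long one (F2/metestrus). All 18 mice had received formalin and no untreated mice are compared, so the values describe differences between groups of injected mice and not a response to formalin. In bulk tissue, fewer cells of a type and less RNA per cell cannot be told apart.

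Samples held 73590509 to 125724156 counts, and 3 counts corresponded to 0.0240 to 0.0407 CPM (counts per library total, scaled by TMM). The library numbers formed 2 series, each with 3 samples of every group. F1/proestrus sample 5 stood apart, with a summed 351 CPM for 5 markers of sensory ganglion neurons (Scn10a, Mrgprd, Avil, Prdm12 and Trpv1) against 0.533 to 1.26 CPM in the other 17 samples. Spinal markers were high in all samples: oligodendrocyte genes summed to 13455 to 16838 CPM and the 7 dorsal horn neuron genes to 438 to 875 CPM. Summed Schwann cell genes had a median of 1121 CPM in males against 704 in F1/proestrus and 760 in F2/metestrus, with Ncmap past the test. Dorsal horn neuron genes had 711 against 490 and 482 CPM, with Penk and Grp past it. These values, and those of neutrophil genes below, moved with sex, and their part in any difference described here was not tested.

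Receptor transcripts were detected more often than ligands, and the cytokine with by far the highest level was Il33. Of the 41 entries for receptor chains 32 were reported, and of the 36 for ligands and inhibitors 17 were. On the scale of CPM per kilobase of annotated exon, which allows genes to be compared, 15 members had a median of at least 1, 26 lay between 0.1 and 1, and 10 lay below 0.1. Il33, an alarmin stored in the nucleus that signals tissue damage, had a median of 63.7 CPM per kilobase (range 49.3 to 73.4). Il18, an IL-1 relative that needs cleavage by caspase-1, followed at 16.2 (14.0 to 20.7). Il33 was above Il18, and Il18 above the next gene, in 18 of 18 samples, without overlap of their ranges.

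The next places were held by receptor chains and by Il17d. Il11ra1, the IL-11 receptor, had a median of 6.74 CPM per kilobase, Il1rap, the signalling chain shared by the IL-1, IL-33 and IL-36 receptors, 6.12, and Il17d, an IL-17 family ligand, 5.46. Their ranges overlapped, and Il11ra1 exceeded Il1rap in 10 of 18 samples. Il17rc (3.74), a chain of the IL-17A and IL-17F receptor, Il10rb (3.69), the chain shared by the IL-10 and IL-22 receptors, and Il13ra1 (3.62), which pairs with Il4ra in the receptor for IL-4 and IL-13, were not separated by their ranges. Il17rc was above Il10rb in 7 of 18 samples, and Il10rb above Il13ra1 in 8. Then came Il17ra, the common IL-17 receptor chain (2.50), Il10ra (2.17), Il15ra (2.13), Il16 (2.09), Il4ra (2.05), Il1r1 (1.27) and Il1rapl1, an IL-1 receptor relative found at synapses (1.11).

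**Figure D1:**
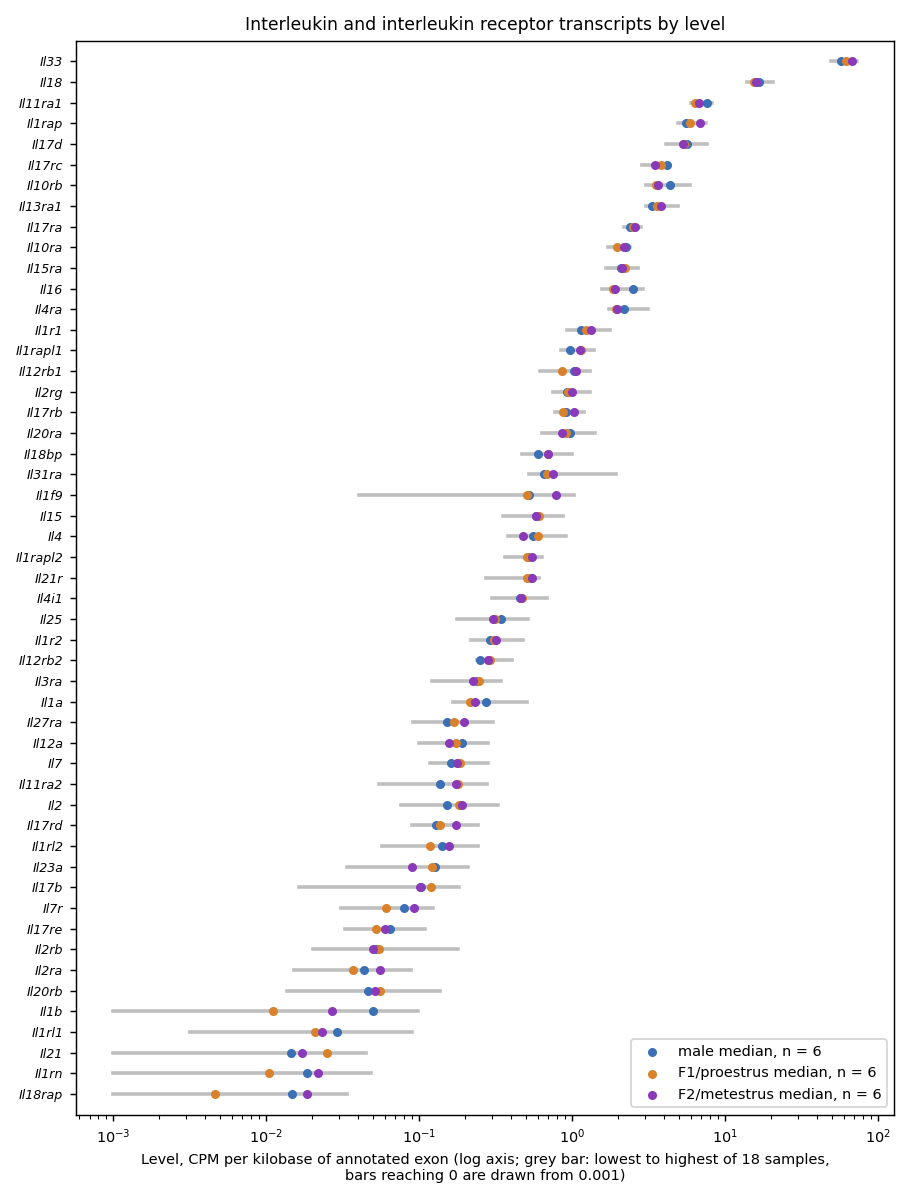
The plot gives the level of each of the 51 reported genes in CPM per kilobase of exon on a log axis, with a dot for the median of each group (n = 6) and a grey bar from the lowest to the highest of the 18 samples. Il33 stands at the top with a median of 63.7, 15 genes lie at or above 1, and the group medians of most genes sit close together beside the spread of the samples.

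Several cytokines with detected receptors were themselves near the limit of detection. Il1b, the classical inflammatory IL-1, had 0 to 17 counts per sample and Il1rn, the natural antagonist of IL-1, 0 to 28, whereas their receptor Il1r1 had 559 to 1273. The reverse held for IL-33: its own receptor Il1rl1 (ST2) had 2 to 70 counts, with a median of 14.5, while Il33 had a median of 18762.5. Il10ra and Il10rb were among the highest receptors, and Il10 itself had at most 8 counts in any sample. Likewise Il17ra and Il17rc were well detected, and Il17a had at most 2 counts and Il17f at most 10. Il4ra and Il13ra1 were well detected, and Il13 had at most 2 counts, although Il4 had a median level of 0.585 CPM per kilobase.

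The 29 entries that were not reported were 19 ligands, 9 receptor chains and the antisense gene Il1bos. Of these, 5 had no count in any sample (Il9, Il24, Il1f6 and 2 of the 3 entries named Il11ra2), and 12 in all, those 5 included, had at most 3 counts in every sample. The others included Il5 (at most 19 counts), Il5ra (18), Il27 (14), Il19 (12), Il12b (7), Il22 (6), Il23r (6) and Il18r1 (6), the ligand-binding chain for IL-18. A count of 0 allows a level of up to 3 counts, so the transcripts at 0 cannot be called absent, and Il27 had at least 4 counts in all 18 samples.

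The first comparison asked which interleukin genes differ between males and females after formalin. In edgeR, 0 of the 51 members had an adjusted p under 0.05, beside 49 of the 24862 genes tested (0.197%). With no adjustment, 5 members had a p under 0.05 (9.80% of 51), beside 2416 of all genes (9.72%), so the share of members was near that of all genes. Of the 5, Il16, Il1a and Il11ra1 had higher means in males, and Il33 and Il1rap in females. The median log2 fold change over the members was -0.06, with 22 positive and 29 negative, and over all genes it was -0.00. Limma voom with sample quality weights called no member and 0.185% of genes, DESeq2 called 1 of 50 (Il16; 0.626% of all genes), and edgeR with the library series as a covariate called 1 of 51 (Il16; 0.539%).

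Il16, which encodes a precursor whose released C-terminal part attracts CD4-bearing cells, came nearest to the threshold. It lies at chr7:83642825-83745726 on the minus strand of GRCm38. The values were 17.5, 18.1, 22.3, 18.2, 22.8 and 21.2 CPM in males, 14.5, 17.4, 13.5, 13.7, 19.3 and 14.7 in F1/proestrus and 15.7, 15.6, 17.2, 14.6, 12.4 and 12.4 in F2/metestrus. Each male lay above the female median, and the only female value inside the male range was the 19.3 of F1/proestrus sample 5, the library with sensory ganglion transcripts. The mean was 20.04 ± 2.36 CPM in males (SD, n = 6) and 15.1 ± 2.08 in females (n = 12), a fold of 1.33 and a log2 fold change of 0.41 (SE 0.088, 95% interval 0.23 to 0.59, adjusted p = 0.0571, edgeR).

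The Il16 difference stayed positive in all settings, with log2 fold changes from 0.29 to 0.52, and its side of the threshold changed. The adjusted p was 0.00662 with DESeq2, 0.0331 in edgeR with the library series, 0.0549 with voom and 0.0732 with DESeq2's size factors in edgeR. With all samples, the ranges of males and females overlapped for every member (0 without overlap). Without F1/proestrus sample 5, the lowest male value of Il16 (17.5 CPM) was above the highest female value (17.4 CPM). That sample was the only female inside the male range, and how many of all genes separate without it was not counted. Without it the log2 fold change of Il16 was 0.45 and the adjusted p was 0.0129, where 0.311% of all genes were called. Leaving out any other sample left the adjusted p over 0.05, up to 0.31. Within the first series the log2 fold change was 0.29 (adjusted p = 0.528) and within the second 0.52 (adjusted p = 0.254), with 3 males and 6 females in each. Against F1/proestrus alone it was 0.36 and against F2/metestrus alone 0.44, and neither passed. The study named Il16 as higher in males on these same samples, so the direction is not independent evidence.

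Some measured features lay beside the Il16 difference. Exons of Il16 overlap those of Stard5 and 2310044K18Rik on the other strand, and whether reads were assigned by strand is not given in the sources used here. Stard5 had 27.5 ± 3.67 CPM in males and 25.0 ± 1.83 in females, with a log2 fold change of 0.14 (adjusted p = 0.517). For 2310044K18Rik it was 0.40 (adjusted p = 0.574) at 16 to 70 counts, beside 974 to 2523 counts of Il16. The 8 microglial markers summed to 361 to 391 CPM in males, 323 to 368 in F1/proestrus and 339 to 373 in F2/metestrus, and none of them passed the test. Summed Schwann cell genes were 874, 941, 1284, 972, 2167 and 1269 CPM in males, in the same order as Il16. They were 627, 787, 586, 760, 1186 and 648 CPM in F1/proestrus, where sample 5 was highest for both. In F2/metestrus they were 605, 728, 907, 712, 793 and 796 CPM, and the order differed from that of Il16. The part of either list in the Il16 difference was not tested.

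**Figure D2:**
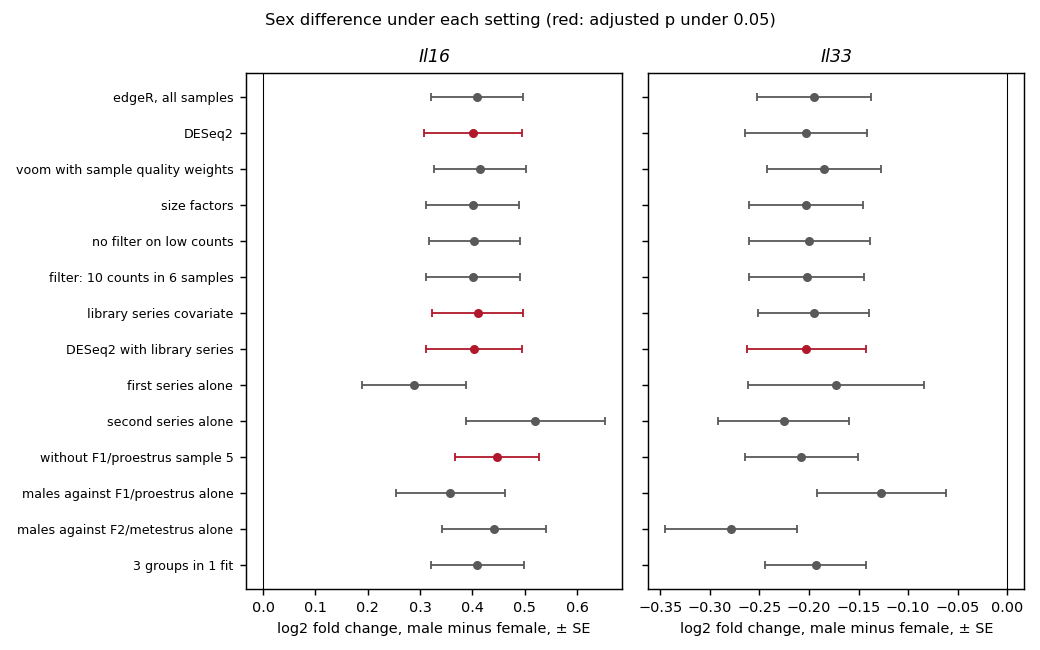
The plot gives the log2 fold change (male minus female, ± SE) of Il16 and Il33 under each setting, in red where the adjusted p was under 0.05. Il16 stays between 0.29 and 0.52 and Il33 between -0.28 and -0.13, on the same side of 0 throughout, while the settings that pass the threshold differ.

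Il33 had the smallest p among the members that were lower in males. Its values were 183, 142, 184, 165, 154 and 166 CPM in males, 190, 176, 174, 188, 172 and 181 in F1/proestrus and 193, 210, 197, 189, 212 and 197 in F2/metestrus. Males lay lowest and F2/metestrus highest, and the ranges of males and F1/proestrus overlapped. Those of males and F2/metestrus did not, and how many of all genes separate in this way was not counted. The mean was 166 ± 16.4 CPM in males and 190 ± 13.2 in females, with a log2 fold change of -0.20 (SE 0.057, 95% interval -0.31 to -0.08, adjusted p = 0.252, edgeR). It passed only in DESeq2 with the library series (adjusted p = 0.0288), where 3.67% of all genes and 2 of the 35 members given an adjusted p (Il16 and Il33) were called. Il33 is made in the cord largely by oligodendrocytes and astrocytes. Oligodendrocyte markers summed to 13889 to 15163 CPM in males, 13455 to 16189 in F1/proestrus and 14357 to 16838 in F2/metestrus, and astrocyte markers to 2773 to 3080, 2770 to 3622 and 2884 to 3137 CPM, with no marker of either list past the test.

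The other IL-1 family genes were closer between the sexes or varied more. Il1a, an alarmin that acts through Il1r1, had 0.385 to 1.004 CPM in males (median 0.537), 0.330 to 0.534 in F1/proestrus (0.424) and 0.363 to 0.6247 in F2/metestrus (0.460). Male samples 4 and 5 lay above all females and the other 4 inside the female range. The log2 fold change was 0.44 (SE 0.19, adjusted p = 0.453), with 0.05 in the first series and 0.76 in the second. Il1rap had 55.9 to 77.0 CPM in males, 62.1 to 85.3 in F1/proestrus and 67.2 to 82.5 in F2/metestrus, and a log2 fold change of -0.17 (SE 0.078, adjusted p = 0.504). Il18 differed by 0.10 (95% interval -0.04 to 0.25) and its secreted inhibitor Il18bp by -0.24 (-0.50 to 0.01).

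Il1b had 0.0337 to 0.144 CPM in males, 0 to 0.105 in F1/proestrus and 0.0199 to 0.187 in F2/metestrus, or 0 to 17 counts, on both sides of the level of 3 counts. The fitted difference of 0.79 had an interval from -0.36 to 1.93. Exons of Il1b overlap the antisense gene Il1bos, which had a mean of 0.0552 CPM in males and 0.00888 in females on 0 to 14 counts. The assignment of reads there is uncertain. The neutrophil markers, of which 6 of 8 were detected, summed to 4.73 to 24.3 CPM in males (median 9.74), 1.69 to 7.94 in F1/proestrus (3.14) and 4.97 to 8.48 in F2/metestrus (5.23), with Mpo past the test. Male sample 1 had the highest neutrophil sum of the 18 samples and 0.080 CPM of Il1b on 10 counts, where the other males had 4 to 16 counts. The part of neutrophil genes in the Il1b values was not tested.

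**Figure D3:**
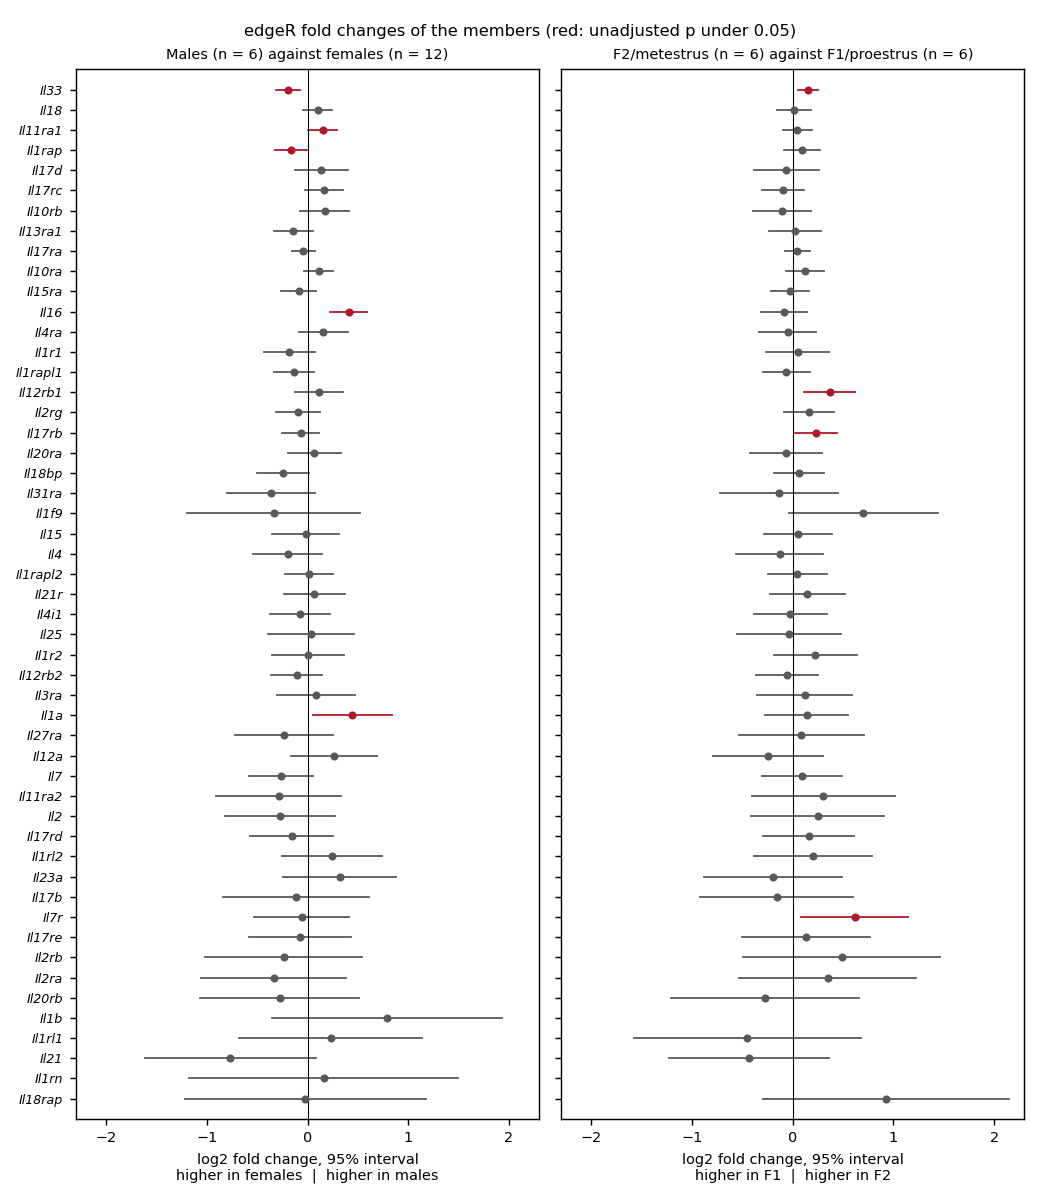
The plot gives the edgeR log2 fold change of each member with its 95% interval, for males against females on the left and F2/metestrus against F1/proestrus on the right, from the highest level per kilobase at the top to the lowest at the bottom. Intervals widen towards the low genes, from -0.31 to -0.08 for Il33 to -1.22 to 1.18 for Il18rap in the comparison of the sexes, and genes with an unadjusted p under 0.05 are red. Il1b and Il1rn were not tested between the female groups.

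In the other families, no member passed between the sexes. Of the 5 IL-17 receptor chains 4 were negative (median log2 fold change -0.07), of the 3 IL-17 ligands 2 were positive (0.03), of the 4 receptors of the IL-10 group 3 were positive (0.09), and the 2 IL-12 family ligands, Il12a and Il23a, were both positive (0.29; Il12a was -0.11 in the first series alone), with no unadjusted p under 0.05 among these genes. Il11ra1 had 27.5 to 37.1 CPM in males and 26.9 to 34.4 in females, with a log2 fold change of 0.15 (SE 0.069, adjusted p = 0.501). It was also higher in the second series (median 31.8 CPM) than in the first (27.6 CPM), and exons of it overlap Ccl27a on the other strand. Its near copy Il11ra2 shares 59.3% of its 50-base windows with Il11ra1 transcripts, so the split of reads between them is uncertain. All 5 reported ligands of the gamma-chain and IL-4/IL-13 group (Il2, Il4, Il7, Il15 and Il21) had negative values, beside 12530 of 24862 genes tested. Their median log2 fold change was -0.26, and none had an unadjusted p under 0.05. Il15 lay near 0, at -0.02 over all samples and 0.01 in the second series alone. The most negative was Il21, a T cell cytokine with 0 to 26 counts, at -0.77 (SE 0.41, adjusted p = 0.543). Of the 8 receptors of that group, 6 were negative (median -0.09). The 8 markers of T and NK cells, of which 4 were detected, summed to 1.83 to 3.24 CPM in males and 2.35 to 3.62 in females.

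An unadjusted 95% interval of the sex difference within a 1.5-fold change in either direction was found for 18669 of the 24862 genes tested. It was found for a smaller share of the members, 30 of 51. Examples among the receptor chains are Il17ra (log2 fold change -0.04, interval -0.16 to 0.07), Il15ra (-0.09, -0.26 to 0.08), Il10ra (0.11, -0.04 to 0.26), Il17rc (0.16, -0.02 to 0.35) and Il13ra1 (-0.14, -0.33 to 0.05). The intervals of the other members reached beyond it, most of all for genes with few counts such as Il1rn, Il1b, Il18rap and Il1rl1. For these a change of that size was not excluded.

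The second comparison asked whether interleukin genes differ between the female groups. No member of the 49 tested passed in edgeR, and neither did any of the 24042 genes tested (0.0%). With voom the count was also 0 of 49 members (0.0% of genes), and DESeq2 called 0 of 51 members and 0.00453% of genes. With no adjustment, 4 of 49 members (8.16%) had a p under 0.05, beside 596 genes in all (2.48%), and all 4 had higher means in F2/metestrus: Il33, Il12rb1, Il7r and Il17rb. Their adjusted p was 0.99998 in edgeR, and they share the same 12 libraries. Of the 49, 30 were positive and 19 negative, with a median log2 fold change of 0.05, beside -0.00 over all genes.

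Il33 had a mean of 200 ± 9.22 CPM in F2/metestrus and 180 ± 7.55 in F1/proestrus (n = 6 each), a log2 fold change of 0.15 (SE 0.045, unadjusted p = 0.00475 in edgeR). Every F2/metestrus sample lay above the F1/proestrus median, and the ranges overlapped only at 189 and 190 CPM. The difference was 0.15 in the first library series and 0.15 in the second, and neither passed. It was 0.13 to 0.17 when any 1 of the 12 samples was left out. Oligodendrocyte markers had a median log2 fold change of 0.11, with median sums of 15507 CPM in F2/metestrus and 14399 in F1/proestrus. For astrocyte markers it was 0.02, with median sums of 3064 and 2913 CPM. The part of these lists in the Il33 difference was not tested. Il12rb1, a chain shared by the IL-12 and IL-23 receptors, had 3.83 to 5.35 CPM in F2/metestrus (median 4.40), 2.53 to 4.01 in F1/proestrus (3.53) and 3.84 to 4.97 in males (4.23). F1/proestrus lay lowest of the 3 groups, with a log2 fold change of 0.36 (SE 0.12, unadjusted p = 0.00788 in edgeR), 0.38 in the first series and 0.36 in the second.

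Il7r, the IL-7 receptor of lymphocytes and some myeloid cells, had 0.356 to 0.573 CPM in F2/metestrus and 0.143 to 0.481 in F1/proestrus, on 13 to 59 counts, with a log2 fold change of 0.61 (SE 0.25). Il17rb, the receptor for IL-25, had 3.27 to 4.44 CPM in F2/metestrus, 2.86 to 3.66 in F1/proestrus and 3.01 to 3.66 in males, with a log2 fold change of 0.23 (SE 0.098). For both genes all 6 F2/metestrus samples lay above the F1/proestrus median, and the ranges of the groups overlapped.

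**Figure D4:**
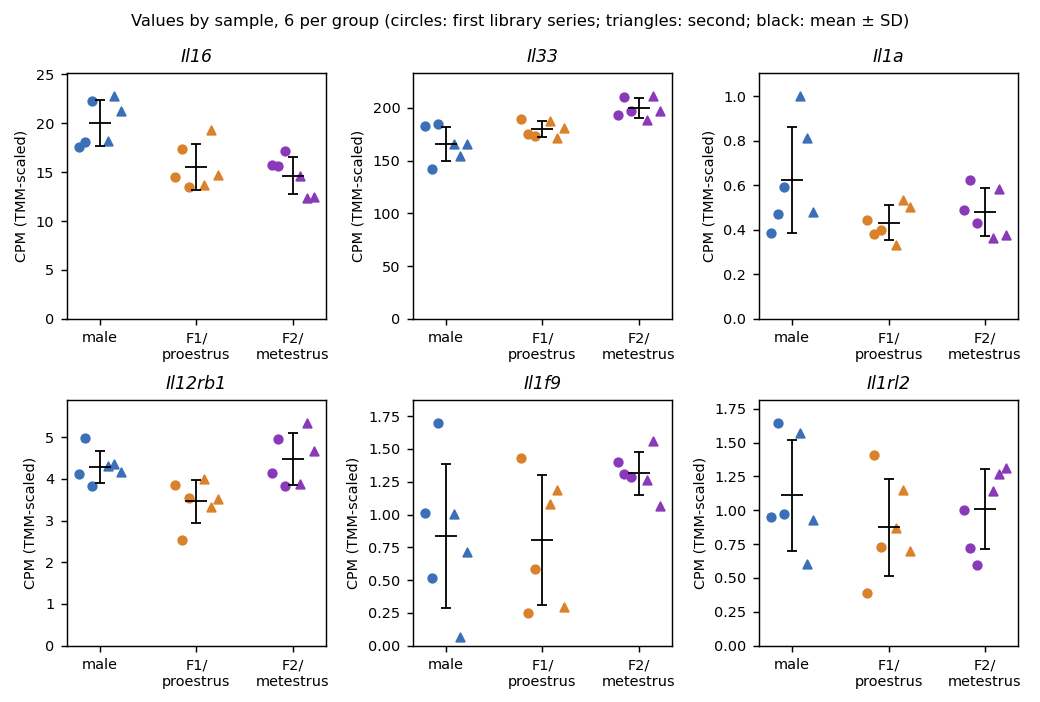
The plot gives each sample's CPM for Il16, Il33, Il1a, Il12rb1, Il1f9 and Il1rl2, with circles for the first library series, triangles for the second and the mean ± SD of 6 samples in black. Il16 is highest in males with 1 F1/proestrus sample at 19.3 among them, Il33 is lowest in males and highest in F2/metestrus, and Il1f9 is spread from 0.067 to 1.70 in males and lies between 1.07 and 1.56 in F2/metestrus.

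Among members with a median of at least 50 counts, Il1f9, Il31ra and Il1rl2 varied most within a group. Il1f9, the older symbol of the gene for IL-36 gamma, had 1.01, 0.516, 1.70, 1.004, 0.067 and 0.716 CPM in males and 1.43, 0.249, 0.586, 1.08, 1.19 and 0.295 in F1/proestrus. In F2/metestrus it had 1.397, 1.31, 1.29, 1.26, 1.56 and 1.07 CPM. Its coefficient of variation was 65.9% in males, 61.6% in F1/proestrus and 12.4% in F2/metestrus, and a difference in spread was not tested. Male sample 5, the lowest at 6 counts, had the highest summed Schwann cell genes (2167 CPM) and the lowest summed motor neuron genes (17.7 CPM). F1/proestrus samples 2 and 6, the next lowest, had 25.4 and 38.1 CPM of motor neuron genes and 787 and 648 CPM of Schwann cell genes. F1/proestrus sample 3, at 0.586 CPM of Il1f9, had the highest motor neuron sum (135 CPM). In F2/metestrus the motor neuron sum was 92.9 to 127 CPM. The part of either list in the Il1f9 values was not tested. The log2 fold change between the female groups was 0.70 (SE 0.35, unadjusted p = 0.0619 in edgeR). Il1rl2, its receptor, had 0.601 to 1.65 CPM in males, 0.391 to 1.41 in F1/proestrus and 0.595 to 1.31 in F2/metestrus, with coefficients of variation of 36.9%, 41.0% and 29.2%.

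F1/proestrus sample 5, with its sensory ganglion transcripts, was highest of the 18 samples for 4 members, where F1/proestrus sample 2 was highest for 9 and F2/metestrus sample 5 for 8. Il31ra, the IL-31 receptor chain that itch-sensing ganglion neurons carry, had 10.9 CPM there. The other F1/proestrus samples had 3.02 to 4.01 CPM, males 2.99 to 4.12 and F2/metestrus 3.61 to 5.87. Against the median of the other 5 samples of its group, this sample was 2.84 times as high for Il31ra, 1.71 times for Il4ra (18.8 CPM) and 1.70 times for Il10rb (22.7 CPM), which are receptors for IL-4 and IL-13 and for the IL-10 family. Over the 34 members with a median of at least 50 counts, the median of this ratio was 1.03, with 11 above 1.25 and 1 below 0.8.

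The direction between the female groups turned on that library for Il31ra. F2/metestrus against F1/proestrus gave a log2 fold change of -0.14 with it (95% interval -0.72 to 0.45) and 0.28 without it, neither past the test. Males against females gave -0.37 with it and -0.18 without it, -0.31 (SE 0.13) against F2/metestrus alone and -0.25 (SE 0.13) in the first series, which does not hold it, and none of these passed. Exons of Il31ra overlap those of Gm3226 on the same strand (84.2 CPM in males and 84.0 in females), so the assignment of reads there is uncertain.

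**Figure D5:**
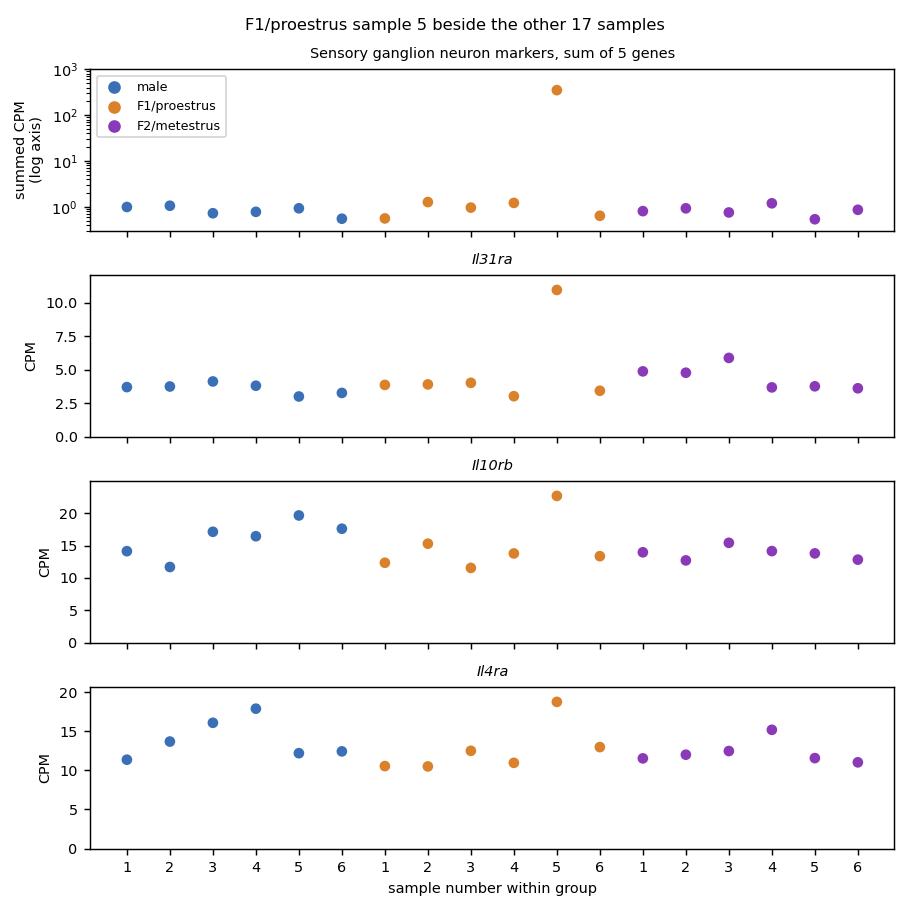
The upper panel gives the summed CPM of the 5 sensory ganglion markers in each sample on a log axis, and the lower panels the CPM of Il31ra, Il10rb and Il4ra, ordered by group and sample number. F1/proestrus sample 5 holds 351 CPM of the markers, and it is the highest of the 18 samples for each of the 3 receptors, with 10.9, 22.7 and 18.8 CPM.

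The medians of the other family leaders by group were as follows. Il10rb had a median of 16.8 CPM in males, 13.6 in F1/proestrus and 13.9 in F2/metestrus, with a sex difference of 0.17 (95% interval -0.08 to 0.42), and its exons overlap Gm21970 on the same strand. Il13ra1 had medians of 12.4, 13.4 and 14.2 CPM. Il17rc had medians of 11.2, 10.2 and 9.40 CPM. Il17d had 7.19, 6.88 and 6.74 CPM, and its second series (6.91 to 9.71) lay mostly above the first (5.27 to 7.26). Il15, a cytokine that sustains NK and memory T cells, had 1.31, 1.37 and 1.32 CPM. Il12a, the p35 chain of IL-12, had 0.327, 0.297 and 0.268 CPM on 17 to 54 counts. None of these passed in either comparison.

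The pathway downstream of the receptors was read from 2 lists of other genes. Of 30 receptor signalling genes (Myd88, Irak, Jak, Stat, Socs and NF-kB genes among them), all were tested and none passed between the sexes, with 15 positive, 15 negative and a median log2 fold change of 0.00. The smallest p was that of Cish, a STAT5 target that damps cytokine receptors, with 4.98 CPM in males and 6.51 in females (log2 fold change -0.39, SE 0.085, adjusted p = 0.0703, edgeR). Unadjusted p was under 0.05 for 6 of the 30 between the sexes (beside 9.72% of all genes) and for 2 between the female groups (beside 2.48%), where none passed. Of the 10 genes for processing and release of IL-1 family cytokines, 9 were tested and none passed in either comparison. Nlrp3, the inflammasome sensor that leads to cleavage of IL-1 beta and IL-18, had the smallest p between the sexes at 0.226 CPM in males and 0.367 in females (-0.70, SE 0.23, adjusted p = 0.323, edgeR).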

How the data were processed

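RNA was measured in ipsilateral DHSC of 18 mice. Per the labels, libraries were made with SMART-Seq v4 and Nextera XT; the methods of the study name another kit, and whether counting used strand is not given in the sources used here. The authors mapped reads to mm10 with Subread and deposited raw counts per gene from featureCounts, not normalized. The deposited DESeq2 columns of the authors' own comparison (mean, fold change, error, statistic and p-values) were not used, and only gene symbols were taken from that table. Gene positions and exon lengths were read from GENCODE vM21 (GRCm38), where 55394 of 55573 IDs were found.

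Genes were filtered with filterByExpr (minimum count 10), normalized with TMM and tested with edgeR 4.0.16 (quasi-likelihood, Benjamini-Hochberg over all genes tested, FDR 5%) in R 4.3.3: 6 males against 12 females in all 18 samples, and F2/metestrus against F1/proestrus in 12. Fold changes are log2, and p-values measure the spread between the samples, each labelled as a separate sample. The methods of the study name DESeq2, and DESeq2 1.42.0 and limma 3.58.1 (voom) were alternatives, with other filters, scaling, a library series term, each series alone and each sample left out. Pairs of libraries within a group differed by at least 15.3 times sampling noise (chi-square per degree of freedom), so none was counted as a repeat. Same replicate numbers did not pair the samples (correlations of -0.105 to 0.228 over 18 pairs).

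Named genes were those called in either comparison under any setting with all samples, the 5 smallest p in each comparison, Il16, the highest ligand and receptor per kilobase in each family, and the 3 with the highest coefficient of variation. Others named at few counts, at tight intervals or in F1/proestrus sample 5 were chosen after their values were seen. The members and lists were chosen with earlier results of these data known. Intervals of fold changes come from the edgeR fit and include the spread between samples. The level of 3 counts covers counting error only.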

Additional observations from a re-analysis of the deposited data

Results flagged for a closer look

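Within groups of 6, a gap test on CPM (Dixon's 95% critical value) over the 51 members and 3 groups, 153 tests, marked 12 values. For independent and normally distributed values it would mark about 1 in 20 groups, or 7.65. The members share libraries and some have few counts, so the 12 cannot be judged by that number. The share marked over all genes, in all samples or in F1/proestrus sample 5, was not computed. In each case the highest sample of its group was marked. F1/proestrus sample 5 held 6 of them: Il31ra (10.9 CPM, others up to 4.01), Il10rb (22.7, others up to 15.3), Il4ra (18.8, others up to 13.0), Il20rb (0.578, others up to 0.311), Il1rn (0.201, others up to 0.0728) and, at 12 counts, Il1b (0.105, others up to 0.0273). That library also held the sensory ganglion markers. Its meningeal fibroblast genes summed to 476 CPM, the highest of the 18 samples. Its Schwann cell genes summed to 1186 CPM, where the other F1/proestrus samples had up to 787. The part of any of these in the values was not tested.

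The other marked values belonged to different libraries. They were Il1rl1 in F1/proestrus sample 2 (0.622 CPM on 70 counts, others up to 0.198), Il17re in F1/proestrus sample 4 (0.638, others up to 0.359), Il12rb2 in male sample 1 (1.43, others up to 1.07) and in F2/metestrus sample 3 (1.38, others up to 1.12), and Il25 (0.506, others up to 0.349) and Il4ra (15.2, others up to 12.5) in F2/metestrus sample 4.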

How the results depend on the processing

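For males against females, the 49 genes called by edgeR became 159 with DESeq2, 134 with the library series, 735 with DESeq2 and the series, 16 and 13 in the first and the second series alone, 13 against F1/proestrus alone and 22 against F2/metestrus alone, and 25 to 77 when 1 sample was left out (25 without male sample 5, 30 without male sample 4 and 77 without F1/proestrus sample 5). The 0 members called became 1 with DESeq2, 1 with the series and 2 with DESeq2 and the series, and 0 to 1 when 1 sample was left out (1 without F1/proestrus sample 5). With a replicate block, 148 genes and 1 member (Il16, adjusted p = 0.0458) were called between the sexes and none between the female groups, but the numbers do not pair the samples, since 9 of 18 same-number correlations were not over 0.1, and samples with different numbers reached 0.247. Between the female groups, DESeq2 called 2 genes, with and without the series, and no member was called in any setting. The cause of these changes was not tested.

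Among the genes followed through all settings, these directions reversed, none of them past the threshold. Between the female groups Il31ra went from -0.14 to 0.14 with voom, 0.011 with the replicate block, 0.39 in the first series and 0.28 without F1/proestrus sample 5 (-0.24 to 0.28 over all samples left out), and Il16 from -0.09 to 0.00097 with voom and 0.086 in the first series. Between the sexes Il1f9 went from -0.34 to 0.036 in the first series and 0.043 against F1/proestrus alone. Over all members, the sex difference had the opposite sign in the first series for 11 of 51 (Il12a -0.11, Il18 -0.02 and Il25 -0.19 among them) and in the second for 8 of 49, and the difference between the female groups for 13 of 47 and 9 of 48. Levels by library total without TMM moved by less than 1 SD for all 17 named genes. Depth limits the genes below about 50 counts, and no untreated mice are compared.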
